A study of Mus musculus with 16 samples.

Results

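The Slc25 family holds the carriers of the mitochondrial inner membrane, together with a few relatives in the outer membrane and in peroxisomes. Its members were taken as every symbol of the deposited count table that begins with Slc25a, which gave 47 of 22058 gene symbols. The inner membrane is closed to most metabolites, and each carrier lets particular ones cross, usually in exchange for another: ADP for ATP, phosphate with a proton, aspartate for glutamate, citrate for malate, or iron into the matrix for heme and iron-sulfur clusters. In the brain the family is best known for the ADP/ATP and phosphate carriers that feed ATP synthase, for the aspartate/glutamate carriers of the malate-aspartate shuttle, which brings the reducing power of cytosolic NADH into mitochondria, and for the glutamate carriers.

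The libraries came from whole brains of untreated wild-type male C57BL/6 mice, numbered 2 to 5. From each of the 4 animals CD11b+ cells (microglia), EAAT2+ cells (astrocytes) and Thy1+ cells (neurons) were taken by fluorescence-activated cell sorting, with dead cells and cells positive for O1 or CD31 gated out, and each animal also gave an input sample. That makes 4 groups of 4 libraries, 16 in all, and the comparison asks which carriers each sorted cell type holds more or less of than the others and than the input. The input is titled as pooled, and the step at which it was taken and the age of the animals are not given in the sources used here. CD11b, EAAT2 and Thy1 are surface proteins and not exclusive ones: Thy1 is also carried by T cells. Libraries were made from the 3′ ends of transcripts with unique molecular identifiers, so that a count stands for an end of a transcript and gene length does not enter. Levels below are counts per library total after that total was multiplied by edgeR's TMM factor (CPM), except where plain totals are named, values in a row are in the order of animals 2 to 5, and errors of means are SD with n = 4 animals.

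Library totals ran from 116761 counts in neurons 2 to 2811080 in the input, so that 1 count is worth more CPM in the sorted cells, and most of all in neurons, than in the input. Each group carried its own markers at the highest level: the summed CPM of 9 microglia genes (of 10 listed) were 25630 to 38640 in microglia, 1678 to 6243 in neurons, 1573 to 4991 in astrocytes and 5893 to 7143 in the input. The 10 astrocyte genes summed to 26200 to 36230 CPM in astrocytes, 2293 to 6928 in neurons, 1253 to 3968 in microglia and 6360 to 12250 in the input. The 10 neuronal genes summed to 2616 to 4314 CPM in neurons and to at most 1162 CPM elsewhere, and 9 lymphocyte genes to 224 to 498 CPM in neurons against at most 79.7 CPM elsewhere. The input held the most of 8 oligodendrocyte genes (5293 to 6728 CPM against at most 2859) and of 7 endothelial genes (2605 to 3342 CPM against at most 735), and 6 choroid plexus genes reached 4377 to 12490 CPM there, 2829 to 7765 CPM in neurons and at most 2768 CPM in microglia and astrocytes. The part of such other cells in the results below was not tested. No microglia, astrocyte or neuronal marker was at 0 in any group, and of the lymphocyte genes Cd79a was at 0 in all 4 groups. Neurons 5 stood apart: Gh, the growth hormone gene of the pituitary, took 65317 CPM there, 2313 CPM in input 5 and at most 1207 CPM in the other 14 libraries. Counts and calls of members that turn on animal 5 or on single libraries are given with and without them. In bulk samples like these, fewer cells of a type and less RNA per cell cannot be told apart.

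The summed level of the family had its highest mean in astrocytes. The 47 members together came to 3981, 3056, 3713 and 3782 CPM in neurons, 5245, 4111, 5771 and 4350 CPM in astrocytes, 2650, 2162, 2549 and 2290 CPM in microglia and 2648, 2926, 2531 and 2916 CPM in the input. On this scale every astrocyte library was above every other library, neurons lay above microglia and the input without overlap, and microglia and the input overlapped. The means were 4869 ± 774 CPM in astrocytes, 3633 ± 401 CPM in neurons, 2755 ± 197 CPM in the input and 2413 ± 226 CPM in microglia. A pair of carriers, the phosphate carrier Slc25a3 and the ADP/ATP carrier Slc25a4, accounted for 60.8% of the family's sum in neurons, 59.4% in astrocytes, 37.9% in microglia and 51.9% in the input. Without them the other 45 members summed to 1411 ± 85.1 CPM in neurons, 1968 ± 280 CPM in astrocytes, 1496 ± 108 CPM in microglia and 1324 ± 59.9 CPM in the input, so that neurons no longer stood above microglia. Per plain library total, without TMM factors, the sums were 3991, 3108, 3723 and 3766 CPM in neurons, 4483, 3899, 4955 and 3965 CPM in astrocytes, 2766, 2305, 2409 and 2282 CPM in microglia and 3004, 3124, 2909 and 3092 CPM in the input. The order of the group means was the same, but astrocytes 3 and 5 then lay below neurons 2, neurons 3 lay below input 3, and all microglia libraries lay below the input. Among the 168 pairs of groups over the tested members, 53 were without overlap with TMM scaling. Of these, 48 were also apart with plain totals, which added 7 others. The 5 that then overlapped were neurons above the input in Slc25a3, neurons above microglia in Slc25a18, astrocytes above microglia in Slc25a32, microglia above neurons in Slc25a36 and astrocytes above the input in Slc25a46. The share of such pairs over all genes was not determined, and pairs with the group that carried a member through the filter are included. These numbers therefore compare the scalings only. Overlaps stated below are those with TMM scaling. The transcripts encoded by mitochondrial DNA itself ranked otherwise, at 18.7 ± 3.19% of counts in neurons, 9.15 ± 0.828% in astrocytes, 3.77 ± 1.38% in microglia and 8.94 ± 2.29% in the input.

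**Figure D1:**
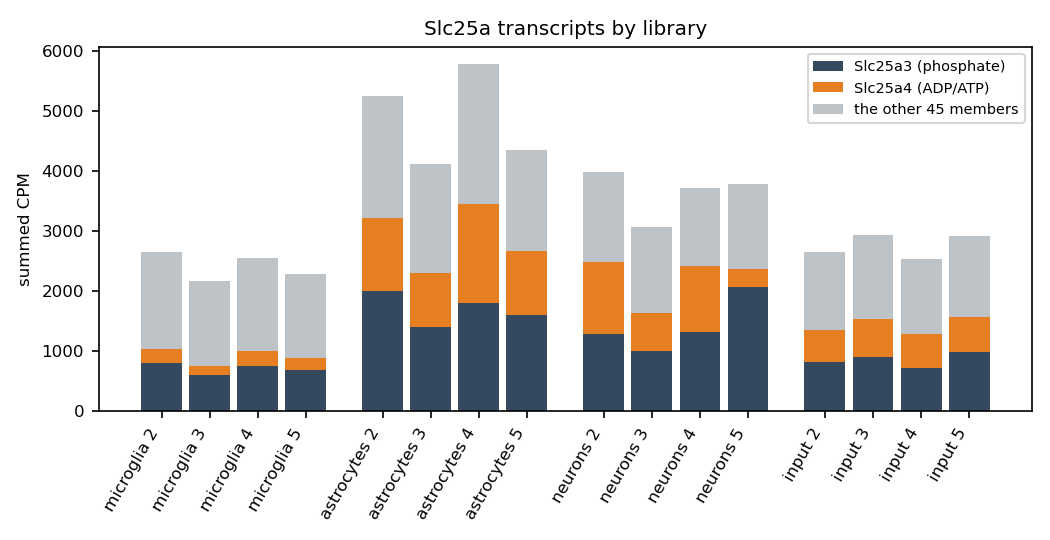
Summed CPM (TMM-scaled) of the 47 Slc25a members in each of the 16 libraries, by group, split into Slc25a3, Slc25a4 and the other 45 members. The 4 astrocyte libraries reach 4111 to 5771 CPM, above all others on this scale, and the 4 microglia libraries lie between 2162 and 2650 CPM.

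Of the 47 members, 28 passed the filter on low counts, which asks for about 20.1 CPM in at least 4 libraries, and 6 of these passed only through the group in which they were highest (Slc25a1, Slc25a13, Slc25a15, Slc25a38, Slc25a40 and Slc25a53). Such a member had to be high in that group, so no test against that group is given for it, and the counts below are given also for the other 22. Each comparison was tested with edgeR's quasi-likelihood test over 9091 genes, and a member was called at a Benjamini-Hochberg adjusted p under 0.05. Differences given below with an SE are log2 fold changes. Over the 4 groups 23 of the 28 differed somewhere, and 18 of the 22, against 70.2% of all genes tested. Microglia and astrocytes differed in the largest number of members: 18 of 28 were called, 5 higher and 13 lower in microglia, where 49.8% of all genes were called, 23.8% higher and 26.1% lower. The median log2 difference of the tested members was -0.95 there, beside -0.02 for all genes. Between microglia and neurons 13 of 28 were called, 4 higher and 9 lower in microglia, with 44.6% of all genes called (20.2% higher, 24.4% lower) and medians of -0.40 and -0.03. Between astrocytes and neurons 10 of 28 were called, 6 higher and 4 lower in astrocytes, with 28.5% of all genes called (14.8% higher, 13.7% lower) and medians of 0.11 and -0.04. That count was 4 of 16 tested with only these groups fitted (1392 of 4865 genes called) and 6 of 29 without animal 5 (2221 of 9161 genes). It was between 7 and 12 of 28 to 33 without any single library (2098 to 2853 genes called). Over the 22 members that did not pass through 1 group alone, 14 (4 higher and 10 lower) were called in microglia against astrocytes, 12 (4 higher and 8 lower) in microglia against neurons and 8 (4 higher and 4 lower) in astrocytes against neurons, with median log2 differences of -0.86, -0.60 and 0.11.

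The 3 comparisons with the input share its 4 libraries. Against the input, 14 of 28 were called, 5 higher and 9 lower in microglia (all genes 53.9%, with 24.1% higher and 29.8% lower), 12 of 28 were called, 9 higher and 3 lower in astrocytes (all genes 35.4%, with 16.3% higher and 19.1% lower), and 8 of 28 were called, 4 higher and 4 lower in neurons (all genes 24.9%, with 11.2% higher and 13.7% lower). Over the 22 members these counts were 11 (4 higher and 7 lower) in microglia, 10 (7 higher and 3 lower) in astrocytes and 5 (3 higher and 2 lower) in neurons, with median log2 differences of -0.32, 0.16 and 0.20. The medians of the 28 were -0.28, 0.16 and 0.14, beside -0.04, -0.09 and -0.11 for all genes. With RLE scaling the neuronal split was 4 higher and 2 lower of the members and 1297 higher and 919 lower of all genes, where the scaling used here gave 1020 higher and 1244 lower of all genes. DESeq2 gave 1476 higher and 1035 lower of all genes. The balance of all genes also turned in astrocytes against the input, from 1480 higher and 1734 lower to 1672 higher and 1497 lower with RLE scaling and 1836 higher and 1630 lower with DESeq2. In astrocytes against neurons it went from 1343 higher and 1247 lower to 1256 higher and 1349 lower with RLE scaling and 1398 higher and 1518 lower with DESeq2. The neuronal count of 8 fell to 5 with the animal as a block (1 higher and 4 lower), to 5 without neurons 2, neurons 3 or input 5, to 4 without input 4 or animal 5 as a whole, and to 3 without neurons 4, input 2 or input 3. These fits tested 28 to 33 members, and over all genes 1417 to 2415 of 9020 to 9918 tested were called. In microglia against the input, in neurons against the input and in microglia against neurons the share of members called was close to the share of all genes called. In astrocytes it was 42.9% beside 35.4% of all genes against the input and 35.7% beside 28.5% against neurons. For microglia against astrocytes it was 64.3% beside 49.8%. Whether these shares differ was not tested. Of the 22 members, those called against all 3 other groups were highest in astrocytes for Slc25a5, Slc25a18, Slc25a33 and Slc25a46, highest in microglia for Slc25a36, Slc25a37 and Slc25a45, and highest in neurons for Slc25a12. Microglia were lowest of all 4 groups in Slc25a4, Slc25a14, Slc25a18 and Slc25a23, and astrocytes in Slc25a30. The share of all genes called against all 3 other groups was not determined. The number of such members, and their split between groups, is therefore not read as a result about the family.

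**Figure D2:**
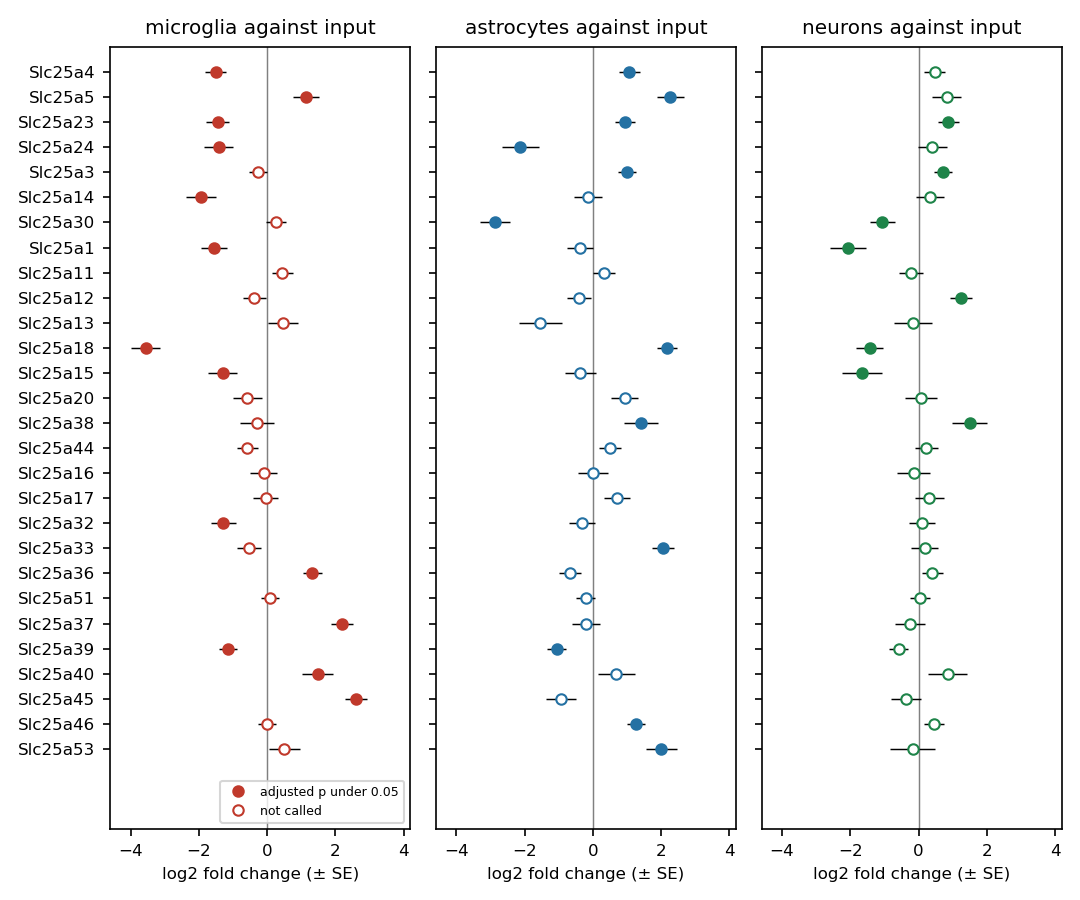
Log2 fold change (horizontal axis, with bars of ± SE) of each of the 28 tested members against the input in microglia, astrocytes and neurons, ordered by substrate, with filled points for members called at adjusted p under 0.05. Slc25a1, Slc25a13, Slc25a15, Slc25a38, Slc25a40 and Slc25a53 passed the filter only through their highest group. Some of their filled points involve a group that carried them through the filter and are not read as test results. These are Slc25a1 and Slc25a15 in microglia and neurons, Slc25a40 in microglia, Slc25a38 in neurons and astrocytes, and Slc25a53 in astrocytes. Slc25a18 lies at -3.55 in microglia and 2.18 in astrocytes, and Slc25a45 at 2.60 in microglia.

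Some of the members called highest in 1 group can be set beside the sequence around a RefSeq start, which is shown for Slc25a18 and Slc25a33 (highest in astrocytes) and Slc25a45 (highest in microglia), the members of this kind that kept their calls under every alternative that tested them and have an entry among the RefSeq promoters used here. Each runs 5′ to 3′ from 250 bases before to 50 bases after the start that the RefSeq table gives, in GRCm38.p6: Slc25a18 at chr6:120773518-120773817, + strand, Slc25a33 at chr4:149774218-149774517, - strand and Slc25a45 at chr19:5877572-5877871, + strand. These starts are not those of the count table: they lie close to them for Slc25a33 and Slc25a45, while most of the Slc25a18 window lies inside the gene as the count table places it. Capitals mark matches on either strand to 5 motifs: GAGGAA, the core read by the myeloid factor PU.1 and other ETS factors, CCAAT for NF-Y, GCGC, any base and TGCGC joined for NRF1, TCAAGGTCA for estrogen-related receptors and GGGCGG for Sp1.
Slc25a18 promoter: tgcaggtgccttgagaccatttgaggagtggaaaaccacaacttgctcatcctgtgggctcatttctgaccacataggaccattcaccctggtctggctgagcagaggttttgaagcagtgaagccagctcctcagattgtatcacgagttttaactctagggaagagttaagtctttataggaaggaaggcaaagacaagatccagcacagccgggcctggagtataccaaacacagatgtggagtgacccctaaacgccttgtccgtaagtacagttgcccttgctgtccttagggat
Slc25a33 promoter: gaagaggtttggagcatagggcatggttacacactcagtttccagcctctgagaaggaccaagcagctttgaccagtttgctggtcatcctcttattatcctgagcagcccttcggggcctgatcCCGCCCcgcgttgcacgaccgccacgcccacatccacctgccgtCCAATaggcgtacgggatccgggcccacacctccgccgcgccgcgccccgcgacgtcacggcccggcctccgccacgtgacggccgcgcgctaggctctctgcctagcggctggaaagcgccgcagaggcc
Slc25a45 promoter: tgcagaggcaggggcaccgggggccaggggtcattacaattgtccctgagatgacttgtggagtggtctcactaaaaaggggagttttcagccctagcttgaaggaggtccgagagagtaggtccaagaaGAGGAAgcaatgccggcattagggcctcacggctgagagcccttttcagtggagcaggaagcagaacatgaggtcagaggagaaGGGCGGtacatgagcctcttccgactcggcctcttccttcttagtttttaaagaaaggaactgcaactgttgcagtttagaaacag
The Slc25a45 window holds GAGGAA and GGGCGG, once each, and the Slc25a33 window holds CCAAT and GGGCGG, once each, with no overlap between matches. The Slc25a18 window holds none of the 5. These are common letters: of 32851 promoter windows of this length, 28.3% hold GAGGAA, 37.4% CCAAT, 4.6% the NRF1 motif, 0.423% TCAAGGTCA and 35.7% GGGCGG. The Slc25a33 window is 66.0% G or C, the Slc25a45 window 52.7% and the Slc25a18 window 49.3%, beside a median of 52.7% over all windows. For 36 of the 47 members an entry was found, and for Slc25a37 there was none.

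The ADP/ATP carriers differed in level between the cell types. Slc25a4, the ADP/ATP carrier ANT1 of heart, muscle and brain, lies at ENSMUSG00000031633, chr8:46206797-46211284 (- strand) in GRCm38.p6. Slc25a4 stood at 1217, 899, 1639 and 1063 CPM in astrocytes and 225, 149.7, 246 and 192 CPM in microglia. It stood at 530.1, 633, 562 and 578 CPM in the input and 1196, 625, 1107 and 306 CPM in neurons. Every microglia library was below every library of the other groups, astrocytes were above the input without overlap, and the neuronal libraries spread across both. The log2 difference was -2.58 ± 0.33 (adjusted p = 8.4e-08) for microglia against astrocytes, -1.98 ± 0.33 (adjusted p = 9.68e-06) against neurons and -1.51 ± 0.32 (adjusted p = 0.000163) against the input. Astrocytes exceeded the input by 1.07 ± 0.31 (adjusted p = 0.00713). The neuronal difference from the input was 0.47 ± 0.31 (adjusted p = 0.273) and did not pass the test, but became a call at 0.74 without neurons 5, the library with the Gh counts, where the gene stood at 306 CPM.

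Slc25a5, the isoform ANT2 of growing cells, lies at ENSMUSG00000016319, chrX:36795651-36798807 (+ strand). Slc25a5 stood at 221, 289.7, 393 and 279 CPM in astrocytes and 45.1, 54.3, 265 and 149 CPM in microglia. It stood at 38.3, 89.9, 43.4 and 74.3 CPM in the input and 179, 140.1, 90.6 and 44.7 CPM in neurons. All astrocyte libraries lay above the neuronal and input libraries, while microglia were split, with microglia 2 and 3 far under microglia 4 and 5. Astrocytes exceeded the input by a log2 difference of 2.27 ± 0.39 (adjusted p = 4.56e-05) and neurons by 1.44 ± 0.43 (adjusted p = 0.0105), a call that ended without animal 5 (1.18). Microglia were lower than astrocytes, at -1.12 ± 0.39 (adjusted p = 0.0172), a call that ended without any 1 of astrocytes 4 and microglia 2 and 3 (-0.93 to -0.84). Against the input microglia were higher by 1.14 ± 0.38 (adjusted p = 0.0123), a call that ended with libraries thinned to the smallest total (1.05) and without any 1 of input 2 and 4 and microglia 4 (0.72 to 0.99). In neurons against the input it was 0.82 ± 0.42 (adjusted p = 0.157), which became a call with only these groups fitted (0.97).

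The share of Slc25a4 in the summed counts of the pair had its lowest mean and its widest spread in microglia. It was 87, 81.7, 92.4 and 87.3% in neurons, 84.6, 75.6, 80.6 and 79.2% in astrocytes, 83.3, 73.4, 48.1 and 56.2% in microglia and 93.3, 87.6, 92.8 and 88.6% in the input. The means in microglia, astrocytes, neurons and input were 65.3 ± 16%, 80 ± 3.72%, 87.1 ± 4.38% and 90.6 ± 2.9%. The ends of the microglial range were 83.3% (95% exact interval 70.7% to 92.1%, 54 counts) in microglia 2 and 48.1% (95% exact interval 43.7% to 52.5%, 520 counts) in microglia 4, intervals that do not overlap and that cover counting error only. The summed astrocyte markers of the microglia libraries were 3968, 2395, 1253 and 1519 CPM, highest in microglia 2, and their part in that spread was not tested. Near-identical copies of the Slc25a5 3′ end exist in the pseudogenes Gm5529 and Gm5560, which have no row in the count table, so reads could be shared with them and its values are uncertain to that extent.

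**Figure D3:**
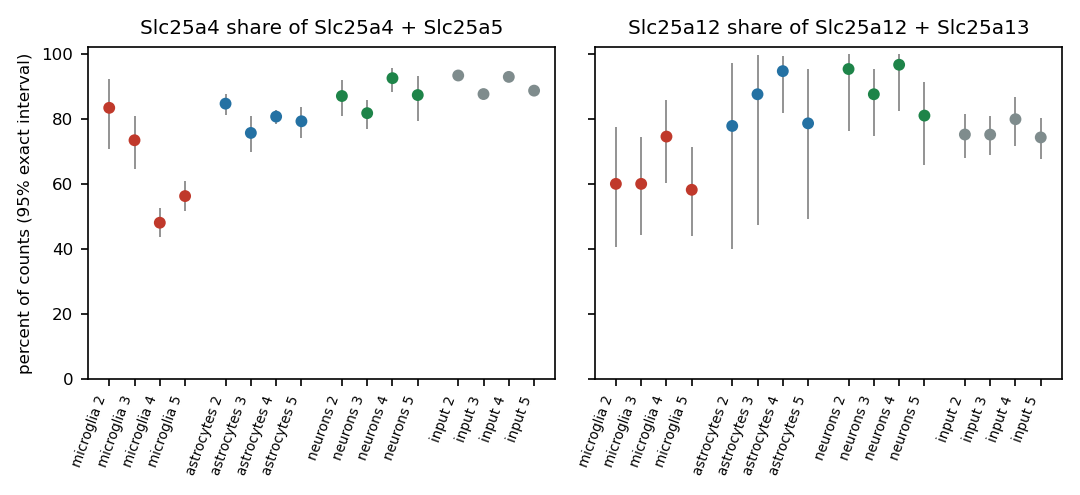
Share (percent of summed counts) of the first gene in a pair of related carriers in each of the 16 libraries by group, with 95% exact intervals as bars: Slc25a4 with Slc25a5 in the left panel and Slc25a12 with Slc25a13 in the right panel. The Slc25a4 share spans 48.1% to 83.3% in microglia and stays at or above 75.6% in the libraries of the other groups. Slc25a13 passed the filter only through microglia.

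The ATP-Mg/phosphate carriers exchange adenine nucleotides and phosphate under the control of calcium and so set the size of the matrix nucleotide pool. For Slc25a23 the CPM were 85.4, 97.5, 85.5 and 61.9 in neurons, 108, 69.9, 86.8 and 75.3 in astrocytes, 20, 18.1, 15.7 and 14.9 in microglia and 30.2, 50, 38.3 and 62 in the input. Microglia were below all other libraries. The log2 differences of microglia were -2.38 ± 0.35 (adjusted p = 8.86e-07) from astrocytes, -2.32 ± 0.36 (adjusted p = 4.02e-06) from neurons and -1.45 ± 0.33 (adjusted p = 0.000365) from the input, a call that ended with libraries thinned to the smallest total (-1.34). Astrocytes were higher than the input by 0.93 ± 0.29 (adjusted p = 0.013), a call that ended with libraries thinned to the smallest total (0.64) and without any 1 of input 2 and 4 (0.76 to 0.85). Neurons were higher than the input by 0.87 ± 0.31 (adjusted p = 0.0352), a call that ended with animal as a block (0.87), with no filter (0.82), with libraries thinned to the smallest total (0.77) and without any 1 of input 2, 3 and 4 and neurons 2, 3 and 4 (0.70 to 0.90).

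Slc25a24, another calcium-regulated carrier of that type, went the other way in astrocytes. Its CPM were 94, 30, 50.3 and 34.4 in neurons, 5.53, 15, 8.19 and 4.43 in astrocytes, 30.1, 11.5, 17.7 and 4.97 in microglia and 44.9, 30.3, 37.3 and 27.7 in the input. All astrocyte libraries were below all neuronal and input libraries and overlapped microglia. The log2 difference of astrocytes was -2.53 ± 0.60 (adjusted p = 0.00165) from neurons and -2.13 ± 0.54 (adjusted p = 0.00277) from the input, on 2, 3, 5 and 1 counts in the astrocyte libraries. Microglia were below neurons, at -1.83 ± 0.50 (adjusted p = 0.00361) and below the input, at -1.42 ± 0.43 (adjusted p = 0.00613), a call that ended without animal 5 (-1.08) and without microglia 5 (-0.97). Slc25a25, the third of these carriers, averaged 15.3 ± 12.7 CPM in neurons, 14.5 ± 11.7 in astrocytes, 14 ± 7.93 in microglia and 13.4 ± 2.73 in the input and was not tested. Slc25a31, the ADP/ATP carrier of sperm, reached at most 5.01 CPM in any library, and Slc25a41 and Slc25a54 had no count in any of the 16.

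Slc25a3, the phosphate carrier that supplies ATP synthase, was the member with the highest level in all 4 groups. It lies at ENSMUSG00000061904, chr10:91116574-91124059 (- strand). Slc25a3 stood at 1991, 1399, 1802 and 1595 CPM in astrocytes and 802, 609, 756 and 688 CPM in microglia. It stood at 816, 899, 715 and 991 CPM in the input and 1281, 1000, 1308 and 2063 CPM in neurons. Astrocytes and neurons overlapped each other and lay above microglia and the input (neurons and the input overlapped with plain totals), and microglia and the input overlapped. Microglia were lower than astrocytes, at a log2 difference of -1.25 ± 0.27 (adjusted p = 0.000216) and lower than neurons, at -0.99 ± 0.27 (adjusted p = 0.00302), a call that ended without animal 5 (-0.72). Astrocytes exceeded the input by 0.99 ± 0.26 (adjusted p = 0.00398) and neurons exceeded it by 0.72 ± 0.26 (adjusted p = 0.0423), a call that ended with animal as a block (0.69), with no filter (0.68), without animal 5 (0.55) and without any 1 of input 2, 3, 4 and 5 and neurons 2, 4 and 5 (0.47 to 0.79).

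Among the carriers related to uncoupling proteins, Slc25a30 was lowest in astrocytes and Slc25a14 in microglia. Slc25a30 stood at 8.54, 32.5, 15.1 and 30.9 CPM in neurons, 2.77, 5.0, 9.83 and 8.86 in astrocytes, 50.1, 65.8, 66.8 and 62.5 in microglia and 48.9, 53.3, 56.2 and 49.6 in the input. Microglia and the input did not overlap with astrocytes or neurons, and astrocytes and neurons overlapped. The log2 difference of microglia was 3.13 ± 0.45 (adjusted p = 6.73e-07) from astrocytes and 1.33 ± 0.38 (adjusted p = 0.00476) from neurons. Astrocytes were lower than the input, at -2.86 ± 0.44 (adjusted p = 8.35e-06) and lower than neurons, at -1.80 ± 0.55 (adjusted p = 0.0127), a call that ended without animal 5 (-1.72) and without any 1 of astrocytes 2 and neurons 3 (-1.55 to -1.52). Neurons were lower than the input, at -1.06 ± 0.37 (adjusted p = 0.033), a call that ended with no filter (-1.10), with only these groups fitted (-0.87), with RLE scaling (-0.91), without animal 5 (-1.25) and without any 1 of input 2, 3, 4 and 5 and neurons 2 and 4 (-1.12 to -0.93).

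Slc25a14, also named brain mitochondrial carrier protein 1, had its lowest level in microglia. Its CPM were 8.54, 62.5, 35.2 and 44.7 in neurons, 35.9, 9.99, 49.2 and 8.86 in astrocytes, 5.01, 9.87, 10.8 and 7.1 in microglia and 35.9, 30.3, 34.7 and 33.5 in the input. Microglia overlapped astrocytes and neurons at their lowest libraries and lay below every input library. Their log2 difference was -2.28 ± 0.51 (adjusted p = 0.000488) from neurons, -1.94 ± 0.45 (adjusted p = 0.00048) from the input and -1.78 ± 0.51 (adjusted p = 0.00417) from astrocytes, a call that ended without astrocytes 4 (-1.22). Slc25a27, the uncoupling protein UCP4, reached means of 4.45 CPM in neurons, 2.2 in astrocytes, 2.01 in microglia and 6.6 in the input, and was not tested.

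Of the carriers of di- and tricarboxylates, Slc25a1 exports citrate for fatty acid and sterol synthesis. Its CPM were 8.54, 7.5, 10.1 and 6.88 in neurons, 38.7, 30, 21.3 and 13.3 in astrocytes, 5.01, 18.1, 7.86 and 12.1 in microglia and 38.3, 27.3, 37.3 and 33 in the input. Astrocytes were above neurons without overlap. The gene passed the filter only through the input, so its higher level there is not read as a result. The neuronal libraries held 1, 3, 2 and 2 counts. Astrocytes were higher than neurons by 1.68 ± 0.60 (adjusted p = 0.0322), a call that ended with animal as a block (1.65), with no filter (1.72), without animal 5 (1.78) and without any 1 of astrocytes 2 and neurons 3 and 5 (1.40 to 1.63). Microglia were lower than astrocytes, at -1.17 ± 0.46 (adjusted p = 0.0333), a call that ended with animal as a block (-1.11), with no filter (-1.08), without animal 5 (-1.39) and without any 1 of astrocytes 2 and 3 and microglia 2, 4 and 5 (-1.20 to -0.82). The oxoglutarate/malate carrier Slc25a11, which works beside the aspartate/glutamate carriers in the malate-aspartate shuttle, had CPM of 115, 141, 177 and 156 in microglia and 224, 40, 154 and 106 in astrocytes. Its CPM were 101.9, 119.9, 97.1 and 119.8 in the input and 42.7, 115, 55.3 and 138 in neurons. The sorted groups overlapped widely and none of the 6 comparisons passed, with 0.67 ± 0.35 (adjusted p = 0.12) for microglia against neurons. It became a call there with no filter (0.79) and without neurons 5 (0.96), and in microglia against the input with only these groups fitted (0.59). The untested dicarboxylate carrier Slc25a10 averaged between 1.08 CPM in microglia and 8.0 CPM in the input. The untested Slc25a21 was at 0 in all microglia and neuronal libraries and at 5.53, 0, 11.5 and 8.86 CPM in astrocytes and 1.63, 3.66, 2.55 and 2.07 CPM in the input.

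The aspartate/glutamate carriers differed most clearly through Slc25a12 (aralar), the isoform of brain and muscle in the malate-aspartate shuttle, at ENSMUSG00000027010, chr2:71271063-71367749 (- strand). Slc25a12 stood at 19.4, 35, 57.3 and 48.7 CPM in astrocytes and 90.2, 44.4, 37.3 and 22.7 CPM in microglia. It stood at 53, 53.3, 50.6 and 62 CPM in the input and 171, 105, 141 and 117 CPM in neurons. All neuronal libraries were above all others. The log2 difference of neurons was 1.24 ± 0.33 (adjusted p = 0.00599) from the input, a call that ended with libraries thinned to the smallest total (1.18). Against neurons, microglia were lower, at -1.62 ± 0.36 (adjusted p = 0.00048) and astrocytes, at -1.65 ± 0.38 (adjusted p = 0.00118). Slc25a13 (citrin), the isoform of liver, averaged 14 ± 9.89 CPM in neurons, 6.77 ± 4.45 in astrocytes, 29.7 ± 21.5 in microglia and 17.4 ± 3.56 in the input, and passed the filter only through microglia. Astrocytes against the input, at -1.54 ± 0.63 (adjusted p = 0.0571), became a call with only these groups fitted (-1.46) and without astrocytes 5 (-1.98). The share of Slc25a12 in the pair was 95.2, 87.5, 96.6 and 81% in neurons, 77.8, 87.5, 94.6 and 78.6% in astrocytes, 60, 60, 74.5 and 58.2% in microglia and 75.1, 75.1, 79.8 and 74.3% in the input, the astrocyte and neuronal values resting on as few as 8 and 21 counts. Microglia lay below astrocytes and neurons in that share, but Slc25a13 passed the filter only through microglia, so this is not read as a result. The 95% exact intervals of microglia 4 (60.4% to 85.7%) and astrocytes 2 (40% to 97.2%) also overlap.

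Slc25a18, the glutamate carrier GC2, showed the largest log2 difference between groups of all tested members. It lies at ENSMUSG00000004902, chr6:120773578-120794336 (+ strand), and its promoter is the first of those printed above. Slc25a18 stood at 332, 185, 377 and 257 CPM in astrocytes and 5.01, 9.87, 2.95 and 4.97 CPM in microglia. It stood at 44.9, 89.9, 56.2 and 66.1 CPM in the input and 42.7, 20, 35.2 and 10.3 CPM in neurons. Astrocytes were above all others and microglia below all others (with plain totals microglia and neurons overlapped), and neurons were below the input without overlap. Astrocytes exceeded the input by a log2 difference of 2.18 ± 0.30 (adjusted p = 1.5e-06) and neurons by 3.61 ± 0.40 (adjusted p = 1.01e-07). The log2 difference of microglia was -5.73 ± 0.42 (adjusted p = 1.52e-11) from astrocytes, -2.12 ± 0.56 (adjusted p = 0.00236) from neurons and -3.55 ± 0.42 (adjusted p = 4.02e-08) from the input. Neurons were lower than the input, at -1.43 ± 0.40 (adjusted p = 0.00929), a call that ended with libraries thinned to the smallest total (-0.63), without animal 5 (-1.12) and without any 1 of neurons 3 and 5 (-1.32 to -1.14). The summed astrocyte markers in the neuronal libraries, 6766, 3544, 6928 and 2293 CPM, ordered neurons 5 lowest and neurons 3 next, as Slc25a18 did, and their part in the neuronal values was not tested. The other glutamate carrier, Slc25a22, averaged 18.7 ± 20.4 CPM in neurons, 7.3 ± 3.26 in astrocytes, 8.98 ± 7.17 in microglia and 4.77 ± 1.2 in the input and was not tested. It made up 2.44, 2.63, 2.95 and 1.7% of the counts of the glutamate carrier pair in astrocytes and 10.6, 4.25, 5.98 and 8.57% in the input, and the microglial and neuronal shares rest on as few as 1 and 6 counts.

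**Figure D4:**
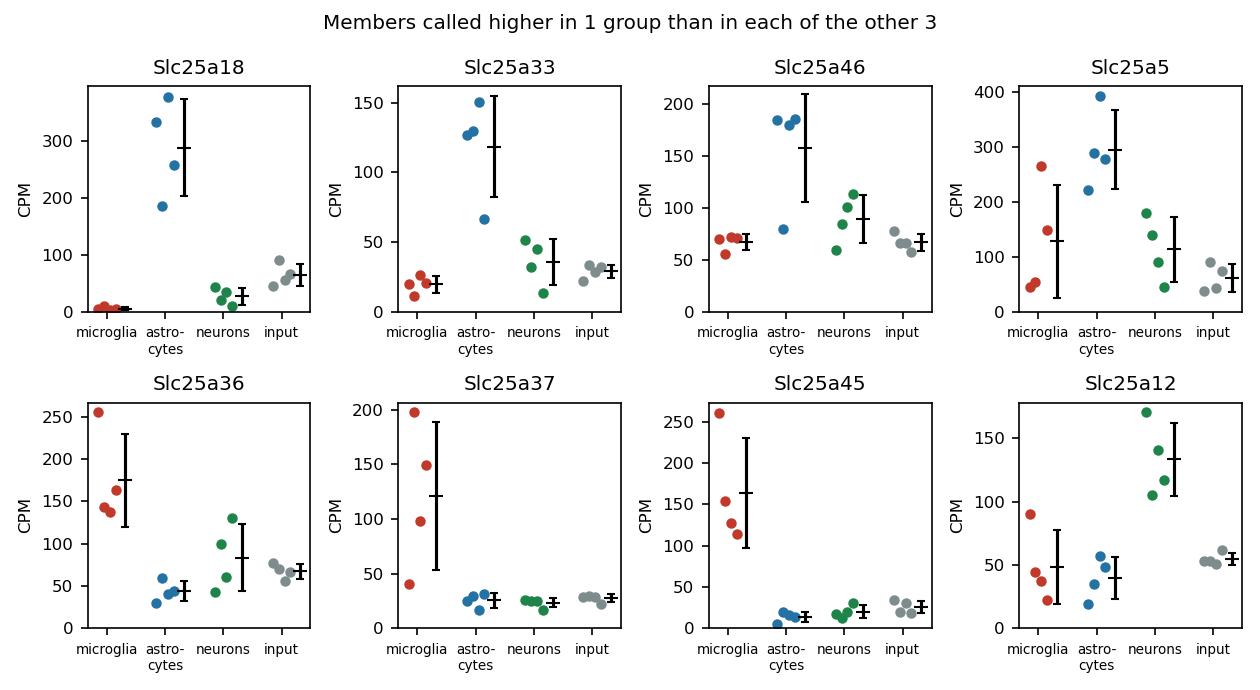
CPM (linear axes that start at 0) of the 8 members, among the 22, called higher in 1 group than in each of the other 3. Points are the 16 libraries and bars the group mean ± SD (n = 4). Slc25a18 lies between 185 and 377 CPM in astrocytes and at most 9.87 CPM in microglia, and Slc25a45 lies above all other libraries in microglia. The share of all genes with this pattern was not determined.

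Slc25a38, which carries glycine into mitochondria for heme synthesis, stood at 27.7, 30, 26.2 and 8.86 CPM in astrocytes and 5.01, 3.29, 10.8 and 7.1 CPM in microglia. It stood at 7.34, 10.3, 5.11 and 12.4 CPM in the input and 17.1, 25, 50.3 and 10.3 CPM in neurons, with overlap between all groups. It would not have passed the filter without neurons, its highest group. Of its 5 libraries over the minimum, 3 were in astrocytes and the rest in neurons, so no test against either group is given. Microglia against the input was not called, at -0.30 ± 0.51 (adjusted p = 0.65).

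Slc25a15, the ornithine carrier of the urea cycle, had CPM of 8.54, 12.5, 5.03 and 3.44 in neurons, 16.6, 45, 14.7 and 8.86 in astrocytes, 5.01, 11.5, 11.8 and 9.23 in microglia and 26.5, 31, 16.4 and 26 in the input. It passed the filter only through the input, so its higher level there is not read as a result. Slc25a44, a carrier of branched-chain amino acids, stood at 105, 115, 78.6 and 39.9 CPM in astrocytes and 60.1, 49.4, 37.3 and 26.3 CPM in microglia. It stood at 61.2, 63.3, 56.2 and 57.8 CPM in the input and 68.3, 60, 106 and 51.6 CPM in neurons, with overlap throughout. The microglial level was lower than the astrocytic, at -1.08 ± 0.34 (adjusted p = 0.00911), a call that ended with libraries thinned to the smallest total (-1.06) and without any 1 of astrocytes 2 and microglia 5 (-0.88 to -0.84). Microglia against neurons, at -0.80 ± 0.36 (adjusted p = 0.0719), became a call with DESeq2 (-0.88) and without microglia 2 (-0.91). The carnitine/acylcarnitine carrier Slc25a20, through which long-chain fatty acids reach oxidation, averaged 40 ± 36.6 CPM in neurons, 58.5 ± 21.5 in astrocytes, 26.1 ± 19.4 in microglia and 31 ± 5.48 in the input. Its level in microglia was below that in astrocytes, at -1.51 ± 0.46 (adjusted p = 0.00643), a call that ended without animal 5 (-1.11). In astrocytes against the input it was 0.94 ± 0.40 (adjusted p = 0.0652), which became a call with only these groups fitted (1.06), with RLE scaling (1.03) and without astrocytes 3 (1.10), and against neurons 0.87 ± 0.49 (adjusted p = 0.204), which became a call without neurons 2 (1.47). The untested Slc25a29, a carrier of basic amino acids, averaged at most 11.9 CPM, in astrocytes, and the ornithine carrier Slc25a2 had 2 counts in all, 1 in microglia and 1 in the input.

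The pyrimidine nucleotide carriers Slc25a33 and Slc25a36 were highest in different groups. Slc25a33 lies at ENSMUSG00000028982, chr4:149744036-149774277 (- strand), with the second promoter printed above. Slc25a33 stood at 127, 129.9, 151 and 66.4 CPM in astrocytes and 20, 11.5, 26.5 and 20.6 CPM in microglia. It stood at 22, 33.3, 28.6 and 31.8 CPM in the input and 51.3, 32.5, 45.3 and 13.8 CPM in neurons. All astrocyte libraries were above all others, and the other groups overlapped. Astrocytes exceeded microglia, which were lower, at -2.57 ± 0.36 (adjusted p = 4.85e-07), and exceeded neurons by 1.88 ± 0.39 (adjusted p = 0.000452) and the input by 2.05 ± 0.32 (adjusted p = 9.87e-06). Slc25a36 was highest in microglia. Its CPM were 42.7, 100, 60.4 and 131 in neurons, 30.4, 59.9, 41 and 44.3 in astrocytes, 256, 143, 137 and 163 in microglia and 77.5, 70, 56.2 and 66.1 in the input. All microglia libraries were above all others, although with plain totals they overlapped neurons. They exceeded astrocytes by a log2 difference of 2.00 ± 0.33 (adjusted p = 6.36e-06), the input by 1.33 ± 0.28 (adjusted p = 0.000151) and neurons by 0.93 ± 0.31 (adjusted p = 0.0142), a call that ended with only these groups fitted (0.77) and with libraries thinned to the smallest total (0.74). Astrocytes were lower than neurons, at -1.06 ± 0.36 (adjusted p = 0.023), a call that ended with only these groups fitted (-1.14), with libraries thinned to the smallest total (-0.93), without animal 5 (-0.80) and without any 1 of astrocytes 2 and 4 and neurons 3 and 5 (-1.09 to -0.81).

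Slc25a51, the carrier that brings NAD into mitochondria, passed the test in none of the 6 comparisons. Its CPM were 85.4, 125, 55.3 and 148 in neurons, 74.7, 129.9, 88.5 and 75.3 in astrocytes, 135, 110.2, 98.2 and 106 in microglia and 122, 96.6, 107 and 90.9 in the input. The groups overlapped. Its log2 difference was 0.29 ± 0.29 (adjusted p = 0.43) for microglia against astrocytes and 0.04 ± 0.29 (adjusted p = 0.928) for microglia against neurons. Slc25a32, linked to folate and FAD, averaged 51 ± 26.2 CPM in neurons, 39 ± 17.8 in astrocytes, 17.7 ± 8.68 in microglia and 48.5 ± 8.74 in the input. In microglia it was lower than in the input, at -1.29 ± 0.37 (adjusted p = 0.00362) and lower than neurons, at -1.38 ± 0.43 (adjusted p = 0.00916), a call that ended without neurons 3 (-1.03). Microglia against astrocytes, at -0.97 ± 0.43 (adjusted p = 0.0571), became a call with DESeq2 (-1.02), with RLE scaling (-1.02) and without astrocytes 3 (-1.04). Slc25a16, linked to coenzyme A, and the peroxisomal carrier Slc25a17 passed in no comparison. Slc25a16 averaged between 21.1 CPM in microglia and 22.5 CPM in the input, and Slc25a17 between 33 CPM in microglia and 64.8 CPM in astrocytes. Slc25a17 became a call in astrocytes without astrocytes 2, at 1.09 against the input and -0.99 for microglia against astrocytes. The carriers of S-adenosylmethionine (Slc25a26) and coenzyme A (Slc25a42) were not tested. Slc25a42 averaged 25.9 ± 18.7 CPM in astrocytes and at most 4.98 CPM in the other groups, and Slc25a26 had 1 count in all neuronal libraries together.

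Of the iron carriers, 1 was far higher in microglia than elsewhere. Slc25a37 (mitoferrin-1), which brings iron into mitochondria and is best known from red cell precursors, lies at ENSMUSG00000034248, chr14:69241848-69285112 (- strand). Slc25a37 stood at 24.9, 30, 16.4 and 31 CPM in astrocytes and 40.1, 197, 98.2 and 149 CPM in microglia. It stood at 29, 30, 28.6 and 22.3 CPM in the input and 25.6, 25, 25.2 and 17.2 CPM in neurons. All microglia libraries were above all others, with a wide spread among themselves, and the other groups overlapped. Microglia exceeded the input by a log2 difference of 2.20 ± 0.32 (adjusted p = 9.81e-07), astrocytes by 2.40 ± 0.39 (adjusted p = 6e-06) and neurons by 2.46 ± 0.42 (adjusted p = 1.53e-05). A gene model with the same 3′ end, Gm16867, has no row in the count table, so reads could be shared with it. The more widely used mitoferrin-2, Slc25a28, averaged 6.96 ± 5.6 CPM in neurons, 11.8 ± 8.44 in astrocytes, 21.1 ± 15.1 in microglia and 9.58 ± 3.14 in the input and was not tested.

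Slc25a39, the mitochondrial glutathione carrier, was highest in the input. Its CPM were 94, 65, 95.6 and 144 in neurons, 49.8, 99.9, 65.5 and 79.7 in astrocytes, 100.2, 54.3, 70.7 and 58.9 in microglia and 151, 137, 153 and 157 in the input. The input was above microglia and astrocytes without overlap. The log2 difference from the input was -1.14 ± 0.27 (adjusted p = 0.000682) for microglia, a call that ended with libraries thinned to the smallest total (-0.91). For astrocytes it was -1.06 ± 0.29 (adjusted p = 0.00421), a call that ended with libraries thinned to the smallest total (-0.88). In neurons against the input it was -0.59 ± 0.28 (adjusted p = 0.13), which became a call without neurons 5 (-0.88). The summed oligodendrocyte and endothelial markers were also highest in the input, and their part was not tested. Its relative Slc25a40 averaged 28.3 ± 18.9 CPM in microglia, with libraries at 55.1, 23, 10.8 and 24.1 CPM. It stood at 11.4, 5.66, 7.66 and 9.5 CPM in the input, 17.1, 10, 30.2 and 10.3 in neurons and 11.1, 15, 13.1 and 17.7 in astrocytes, and microglia overlapped each of the other groups. The gene passed the filter only through microglia. Reads of Slc25a40 could be shared with the pseudogene Gm5066, which carries a near-identical 3′ end and has no row in the table. The share of Slc25a39 in the pair was 84.6, 86.7, 76 and 93.3% in neurons, 81.8, 87, 83.3 and 81.8% in astrocytes, 64.5, 70.2, 86.7 and 70.9% in microglia and 93, 96, 95.2 and 94.3% in the input.

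Slc25a45, a carrier for which no role is given here, was the member with the largest excess in microglia. It lies at ENSMUSG00000024818, chr19:5877808-5885766 (+ strand), with the third promoter printed above. Slc25a45 stood at 5.53, 20, 16.4 and 13.3 CPM in astrocytes and 261, 155, 128 and 114 CPM in microglia. It stood at 34.3, 20.3, 30.7 and 18.6 CPM in the input and 17.1, 12.5, 20.1 and 30.9 CPM in neurons. Every microglia library was above every other library, by several times, and the other groups overlapped. Microglia exceeded the input by a log2 difference of 2.60 ± 0.32 (adjusted p = 7.39e-08), astrocytes by 3.53 ± 0.42 (adjusted p = 2.59e-08) and neurons by 2.96 ± 0.42 (adjusted p = 9.73e-07). The summed microglia markers of the astrocyte libraries, 1573, 4991, 1604 and 4859 CPM, were lower in astrocytes 2 and 4 than in 3 and 5, while Slc25a45 was lowest in astrocytes 2 and 5, and their part in those values was not tested.

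Slc25a46, a carrier relative of the outer membrane that acts in mitochondrial dynamics, was called highest in astrocytes. Its CPM were 59.8, 85, 101 and 113 in neurons, 185, 79.9, 180.2 and 186 in astrocytes, 70.1, 55.9, 71.7 and 71 in microglia and 77.5, 66.6, 66.4 and 57.8 in the input. Astrocytes were above microglia without overlap and above the input without overlap (they overlapped it with plain totals), and overlapped neurons, with astrocytes 3 far below the other 3 libraries. Astrocytes exceeded the input by 1.26 ± 0.27 (adjusted p = 0.000453) and microglia, which were lower, at -1.25 ± 0.28 (adjusted p = 0.000399). They exceeded neurons by 0.80 ± 0.30 (adjusted p = 0.0407), a call that ended with animal as a block (0.75), with no filter (0.83), with only these groups fitted (0.67), with RLE scaling (0.74), with libraries thinned to the smallest total (0.94), without animal 5 (0.87) and without any 1 of astrocytes 2, 4 and 5 and neurons 2, 3 and 4 (0.69 to 0.85). In neurons against the input it was 0.46 ± 0.29 (adjusted p = 0.254), which became a call with DESeq2 (0.62). Slc25a53, also with no role given here, was spread within astrocytes, at 63.6, 79.9, 34.4 and 8.86 CPM, beside 0, 13.2, 17.7 and 22 CPM in microglia. It stood at 17.1, 10, 10.1 and 6.88 CPM in neurons and 12.2, 14, 8.69 and 9.91 CPM in the input, and astrocytes 5 lay within the range of the other groups. The gene passed the filter only through astrocytes. The remaining members were not tested. Slc25a34 averaged 19.4 ± 17.2 CPM and Slc25a35 14.1 ± 5.73 CPM in astrocytes, and at most 6.11 and 8.16 CPM in the other groups. Slc25a43, Slc25a47 and Slc25a48 averaged at most 2.49 CPM in any group.

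Among the tested members, exons of Slc25a11, Slc25a18, Slc25a23, Slc25a33, Slc25a37 and Slc25a46 overlap exons of genes on the opposite strand. The overlap is 32 bases with Atp6v1e1 for Slc25a18 and up to 383 bases with B930094E09Rik for Slc25a46. Among the untested members given above, this holds for Slc25a10, Slc25a21, Slc25a25, Slc25a26 and Slc25a35. The longest of these overlaps is 1151 bases, with Rangrf for Slc25a35. Whether the counting used strand is not given in the sources used here, so reads of such partners could not be told apart where it did not.

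The enzymes that work with these carriers were read in the same fit. Calls of single genes were checked under the alternatives for members only. Whether the calls of these enzymes and of the lists below turn on animal 5 or on single libraries was not determined. The 4 enzymes of the malate-aspartate shuttle, Got1, Got2, Mdh1 and Mdh2, were all lower in microglia than in the input and in neurons, with median log2 differences of -1.25 and -1.93. Got1 averaged 47 ± 12.2 CPM in microglia and 208 ± 77.5 CPM in neurons, a difference of -2.05 ± 0.30 (adjusted p = 1.29e-06). Against the input, neurons were higher in Got1, by 0.99 ± 0.27 (adjusted p = 0.00721), and in Mdh1, by 1.11 ± 0.28 (adjusted p = 0.00423). Got1 and Got2 were lower in astrocytes than in neurons, at -1.48 ± 0.30 (adjusted p = 0.000296) and -1.53 ± 0.53 (adjusted p = 0.028), as the carrier Slc25a12 was. The other 2 enzymes, Mdh1 and Mdh2, were not called there, nor was the carrier Slc25a11, at 0.53 ± 0.36 (adjusted p = 0.291).

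Of the 5 carnitine shuttle enzymes 4 were tested, and Cpt1b was not. Cpt1a, which commits long-chain fatty acids to mitochondria, was higher in astrocytes than in neurons by 1.86 ± 0.38 (adjusted p = 0.000365), and microglia were lower than astrocytes, at -1.49 ± 0.33 (adjusted p = 0.000298). Crat, the carnitine acetyltransferase, was higher in astrocytes than in neurons by 1.82 ± 0.52 (adjusted p = 0.00788), 2 of the 4 in all. Of 12 other membrane transport genes 9 were tested: 5 were lower and 1 higher in microglia than in astrocytes. The higher one was the uncoupling protein Ucp2, at 1.96 ± 0.44 (adjusted p = 0.00043), and the lower ones included the pyruvate carrier subunit Mpc2, at -1.59 ± 0.30 (adjusted p = 3.71e-05), and the outer membrane channel Vdac1, at -1.48 ± 0.30 (adjusted p = 0.000129). Of 12 housekeeping genes of mitochondria 9 were tested, and 1 was higher and 1 lower in microglia than in astrocytes. The lower one was citrate synthase (Cs), at -2.50 ± 0.28 (adjusted p = 8.02e-09), which also exceeded the input in astrocytes by 1.78 ± 0.26 (adjusted p = 3.26e-06). In astrocytes against the input, 2 of the 9 were higher, 1 lower and 6 not called, with a median log2 difference of -0.41. For these lists the shares of all genes called are those given with each comparison above.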

How the data were processed

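The 16 libraries, 4 groups of 4 animals, were read as deposited: counts per gene, which the authors gave with 2 significant digits for all 28936 values of 100 or more (an error of up to 5%), with gene coordinates that match GRCm38.p6. The labels describe 3′ libraries with molecular identifiers. Tools named in the submitters' processing notes, with no roles, are edgeR, STAR, Subread 1.6.2 and featureCounts, and the build named is GRCm38.p6, and alignment settings are not given in the sources used here. Counts were fitted with edgeR 4.0.16 (R 4.3.3; TMM scaling, also of the CPM, filterByExpr by group, quasi-likelihood, all 16 libraries, 12 residual degrees of freedom), p-values were adjusted over 9091 genes, two-sided, and the procedure was tested on simulated data. Fold changes are log2 ± SE. The members and lists were chosen with earlier results of these data known.

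Values in every library are given for the 12 members with the highest mean CPM and, per comparison, the 3 largest called changes in each direction if the higher group reached 20 CPM; others are given by means or counts, and 1 untested member is not reported here. Slc25a21 is also given in every library, chosen after its values were seen, and Gh was named for the same reason. The labels give the animal of each sample, so the samples are paired by animal. Same-animal deviations correlated at -0.0976 to 0.1127 (24 pairs) and different-animal ones at -0.1202 to 0.157 (72 pairs). Alternatives were animal as a block, RLE scaling, DESeq2 1.42.0, no filter, thinning to 116761 counts, only the groups compared, and each library left out; leaving out animal 5 and levels per plain library total were added after seeing the data. Intervals of shares are exact (Clopper-Pearson, 95%). Promoters are from RefSeq (GRCm38.p6); overlaps and copies of 3′ ends were found with GENCODE annotation and an alignment of the last 400 bases. Depths below the top mean that low CPM rest on few counts.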

Additional observations from a re-analysis of the deposited data

Results flagged for a closer look

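A library far from the other 3 of its group was found in 3 of the 96 groups of 4 checked, and chance gives about 1 in 20. Slc25a37 was 17.2 CPM in neurons 5, below the other neuronal libraries. Slc25a46 was 55.9 CPM in microglia 3 and 79.9 CPM in astrocytes 3, both below the rest of their groups.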

How the results depend on the processing

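Of 75 comparisons of a member that were called, 44 were called under every alternative that tested them, 31 were lost under at least 1, and none reversed. Both numbers include calls of the 6 members against a group that carried them through the filter, which are not read as results. Among the 44 these are Slc25a1 in microglia and neurons against the input, Slc25a40 in microglia against the input, Slc25a53 in astrocytes against the input and neurons, and Slc25a38 in microglia against astrocytes. With animal as the replicate block, the members called in neurons against the input fell to 5, and the block ended the single calls given above. It also ended those of Slc25a38 against the input in neurons (1.42) and astrocytes (1.33), for which no test is given, and no other. With libraries thinned to 116761 counts, 13 members could be tested: 4, 5 and 1 were called against the input in microglia, astrocytes and neurons, 8 in microglia against astrocytes, 6 in microglia against neurons, 3 in astrocytes against neurons and 9 over the 4 groups. Over all genes these thinned counts were 1765, 1133, 760, 1869, 1682, 1105 and 2554 in the same order, of 3782 genes tested. With only the groups compared in the fit, 8 of 16 members were called in microglia against neurons (2387 of 6030 genes). In astrocytes against neurons 4 of 16 were called (1392 of 4865 genes). Without animal 5, 4 of 29 members were called in neurons against the input (1417 of 9161 genes) and 6 of 29 in astrocytes against neurons (2221 of 9161 genes). Leaving out each library in turn gave 12 to 15 members in microglia against the input, 10 to 14 in astrocytes against the input, 3 to 7 in neurons against the input, 14 to 19 in microglia against astrocytes, 12 to 15 in microglia against neurons, 7 to 12 in astrocytes against neurons and 20 to 27 over the 4 groups. These fits tested 28 to 33 members and 8978 to 9968 genes. Over all genes the numbers called, in the same order, were 4252 to 5680, 2296 to 3445, 1550 to 2415, 3918 to 5012, 3537 to 4624, 2098 to 2853 and 5959 to 7279. The thinned and 2-group fits test fewer genes or samples by construction, and for the others the cause was not tested. RLE scaling moved the median of all genes by 0.16 in neurons against the input and by less than 0.1 elsewhere. The summed CPM of the input moved from 2755 to 3032 per plain library total, and those of the other groups by less than 1 SD. At this depth a member with fewer than 4 libraries at about 20.1 CPM was not tested.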
